A study of Nematostella vectensis and Apis mellifera and Strongylocentrotus purpuratus with 22 samples.

Results

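DNA methylation of honey bee (Apis mellifera) sperm was compared with that of worker and drone embryos at 2 stages, using whole-genome bisulfite sequencing (WGBS) of 5 of the 22 samples of the series. The embryo groups were worker blastoderm, worker gastrula, drone blastoderm and drone gastrula, and the reference for each was sperm. All bees came from wild-type lines, and none of the groups received a treatment. Worker embryos developed from eggs that queens laid on worker combs, drone embryos from eggs laid on drone combs, and both were staged by their morphology. Sperm was taken as semen from adult drones, washed, and spun at low speed against somatic cells. The sources used here do not say whether these drones were related to the worker embryos, nor give the number of animals behind a library. The data of each group pool 2 replicates, so no spread between replicates could be computed for any value below, and each test compares 2 pooled libraries and not conditions. All 4 comparisons share the same sperm data.

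A member of a comparison was any CpG with at least 5 reads in both the embryo and sperm, and any 1000-bp window with at least 3 such CpGs. Of the 10021113 CpGs covered in any of the 5 files, 9298426 met this rule for worker blastoderm, 9538561 for worker gastrula, 9257113 for drone blastoderm and 9030280 for drone gastrula. They fell into 216681, 219312, 214468 and 215238 windows in the same order of embryos. At CpGs just inside the rule for worker blastoderm, whose shallower file had 5 reads, the mean level was 0.015 in worker blastoderm and 0.0145 in sperm. At CpGs just outside it, with 4 reads, it was 0.0145 in worker blastoderm and 0.0142 in sperm. The files held 169593389 to 601450469 reads over CpGs, with a median of 22 reads per CpG at blastoderm and 60 at gastrula in workers, 24 at blastoderm and 17 at gastrula in drones, and 49 in sperm.

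Honey bee workers and drones differ in the number of genome copies. Workers develop from fertilized eggs and carry a maternal and a paternal genome, while drones develop from unfertilized eggs and carry the maternal genome alone, so a drone has no father whose sperm methylation it could inherit. Sperm cells of a drone are formed without a reduction in chromosome number, and are nearly identical in sequence within one drone. Methylation in this insect is sparse and lies mostly within the bodies of genes, and it is copied through cell division by a maintenance methyltransferase and placed anew by a de novo methyltransferase, both of which bees have. The blastoderm is the single cell layer that covers the yolk after the first nuclear divisions, and the gastrula is the later stage in which the mesoderm is moved inwards.

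The mean level of shared CpGs, not corrected for bisulfite non-conversion, was higher in all 4 embryo groups than in sperm, by less than 0.001 of the scale from 0 (no read methylated) to 1 (all reads methylated). It was 0.0141 in worker blastoderm against 0.0139 in sperm, a difference of 0.000258 (95% binomial interval 0.000241 to 0.000275). In worker gastrula it was 0.0147 against 0.0138 in sperm, a difference of 0.000895 (0.000882 to 0.000909). In drone blastoderm it was 0.0143 against 0.0137 in sperm, a difference of 0.000537 (0.000521 to 0.000554). Drone gastrula had 0.015 against 0.0140 in sperm, a difference of 0.000978 (0.000960 to 0.000997). These intervals, and all others given here, cover counting error only. They take the counts at different CpGs as independent, although a read can cover several, and can therefore be too narrow. The embryos with a paternal genome and those without one thus lay on the same side of sperm, and within each kind the later stage lay farther from it.

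Nearly all of this difference came from windows with almost no methylation. Over the 8858691 CpGs that had at least 5 reads in all 5 files and lay in a window with at least 3 of them, 97.7% were in the 193396 windows with a mean over the files below 0.02. The mean over these windows, each counted once, was 0.00758 at blastoderm and 0.00828 at gastrula in workers. It was 0.00777 at blastoderm and 0.00805 at gastrula in drones, against 0.00723 in sperm. In the mean over CpGs, these windows accounted for 107% of the embryo minus sperm difference in worker blastoderm and 112% in worker gastrula. The share was 96.1% in drone blastoderm and 97.1% in drone gastrula. Values above 100% arose because the remaining windows were on average lower in worker embryos than in sperm. The mean difference was above 0 on 16 of 16 chromosomes in each of the 4 comparisons. The values of unmethylated windows were not corrected for cytosines that bisulfite failed to convert, and at this level low methylation and failed conversion cannot be told apart.

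In the 2882 windows with a mean level of at least 0.8, workers and drones lay on different sides of sperm at the gastrula stage. The level was 0.910 at blastoderm and 0.897 at gastrula in workers, 0.916 at blastoderm and 0.921 at gastrula in drones, against 0.903 in sperm. Single windows went both ways. Of these windows 1575 were higher and 1297 lower in worker blastoderm than in sperm, 1222 higher and 1660 lower in worker gastrula, 1712 higher and 1146 lower in drone blastoderm, and 1850 higher and 1024 lower in drone gastrula. The sides of the gastrulae were not particular to this class. In windows of 0.5 to 0.8 the mean difference from sperm was -0.0108 in worker gastrula and 0.00905 in drone gastrula. In those of 0.2 to 0.5 it was -0.00686 in worker gastrula and 0.00300 in drone gastrula. In windows between 0.05 and 0.2 every embryo group was below sperm, with 0.119 in worker blastoderm and 0.119 in worker gastrula, and 0.118 in drone blastoderm and 0.116 in drone gastrula, against 0.123 in sperm. Depth moved with the level of the windows, and not equally in the 5 groups. Methylated windows (at least 0.8) had 92.4% of the median depth over all windows at blastoderm and 116% at gastrula in workers, 69.1% at blastoderm and 91.9% at gastrula in drones, against 60.0% in sperm. The part of depth in these differences was not tested. A level that pools all reads gives more weight to deep CpGs, and was 0.0138 in worker blastoderm and 0.0164 in worker gastrula, and 0.0124 in drone blastoderm and 0.0147 in drone gastrula, against 0.0114 in sperm. With reads pooled in this way the difference from sperm was largest in worker gastrula, at 0.00501, and worker blastoderm (0.00235) was above drone blastoderm (0.00103), whereas the mean over CpGs had the opposite order of the blastoderms.

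**Figure D1:**
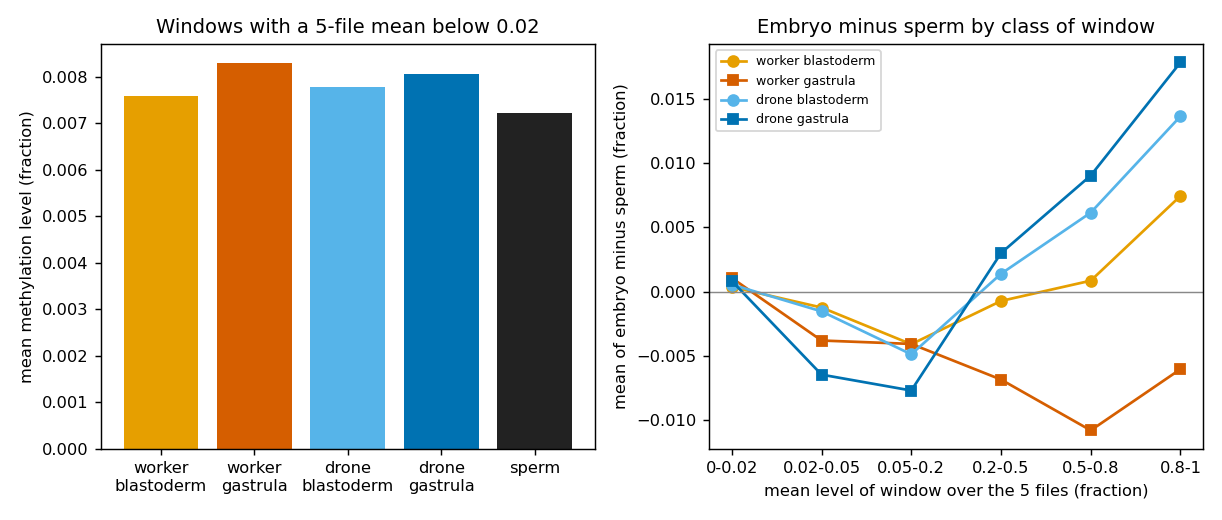
Mean methylation levels of embryos and sperm by class of window. Left, bars give the mean level (fraction) over windows whose mean over the 5 files is below 0.02. In embryos they run from 0.00758 in worker blastoderm to 0.00828 in worker gastrula, against 0.00723 in sperm. Right, points give embryo minus sperm (fraction) in 6 classes of windows by mean level, where only worker gastrula stays below 0 in the most methylated class.

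Differences between windows were then tested by Fisher's exact test on the reads with and without methylation, with Benjamini-Hochberg adjustment over all windows of a comparison. A read counts once at each CpG that it covers, and the test treats these counts as independent, so its p-values can be too small. To be called, a window needed a difference of mean CpG levels of at least 0.2 besides an adjusted p below 0.05. Called windows were rare in every comparison. In worker blastoderm 294 windows were called, 0.136% of those tested, of which 133 were higher (0.0614%) and 161 lower (0.0743%) than in sperm. In worker gastrula 355 were called (0.162%), 125 higher (0.057%) and 230 lower (0.105%). In drone blastoderm 399 were called (0.186%), 186 higher (0.0867%) and 213 lower (0.0993%). Drone gastrula had the most, with 780 called windows (0.362%), 387 higher (0.18%) and 393 lower (0.183%). In drone gastrula the higher calls were the more numerous after thinning, with 272 higher and 260 lower. The counts are not comparable at face value, as the files differ in depth. After all 5 files were thinned to the depth of drone gastrula, the shallowest, 145 windows were called for worker blastoderm, 184 for worker gastrula, 197 for drone blastoderm and 532 for drone gastrula, in which the order of the comparisons was the same.

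Called windows lay mostly at intermediate levels, where windows hold few CpGs. Among windows whose mean of embryo and sperm was between 0.2 and 0.8, 2.65% were called at blastoderm and 3.31% at gastrula in workers, 3.72% at blastoderm and 7.13% at gastrula in drones. The call needs a difference of 0.2, which windows near 0 or near 1 in both files cannot have. The median called window held 7 CpGs at blastoderm and 6 at gastrula in workers, 8 at blastoderm and 8 at gastrula in drones, against medians of 41 to 43 over all windows tested. Few CpGs are not particular to the calls. Counting CpGs shared by all files, the median was 10 over all windows with a mean of 0.2 to 0.5, and 7 over those of 0.5 to 0.8. Unplaced scaffolds had larger shares of called windows than placed chromosomes, with 0.218% on scaffolds and 0.126% on chromosomes in worker blastoderm, and 0.615% and 0.334% in drone gastrula. Among the chromosomes, the share was lowest on chromosome 13 in all 4 comparisons, from 0.0325% in worker blastoderm to 0.0654% in drone gastrula. It was highest on chromosome 15 in worker blastoderm (0.246%) and worker gastrula (0.289%), and on chromosome 8 in drone blastoderm (0.368%) and drone gastrula (0.599%). Where they differed, embryo levels were seldom near 0, and most often in drone gastrula. Among windows called lower, the level was below 0.02 in 15 of 161 for worker blastoderm, 13 of 230 for worker gastrula and 25 of 213 for drone blastoderm, and in 93 of 393 (23.7%) for drone gastrula.

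**Figure D2:**
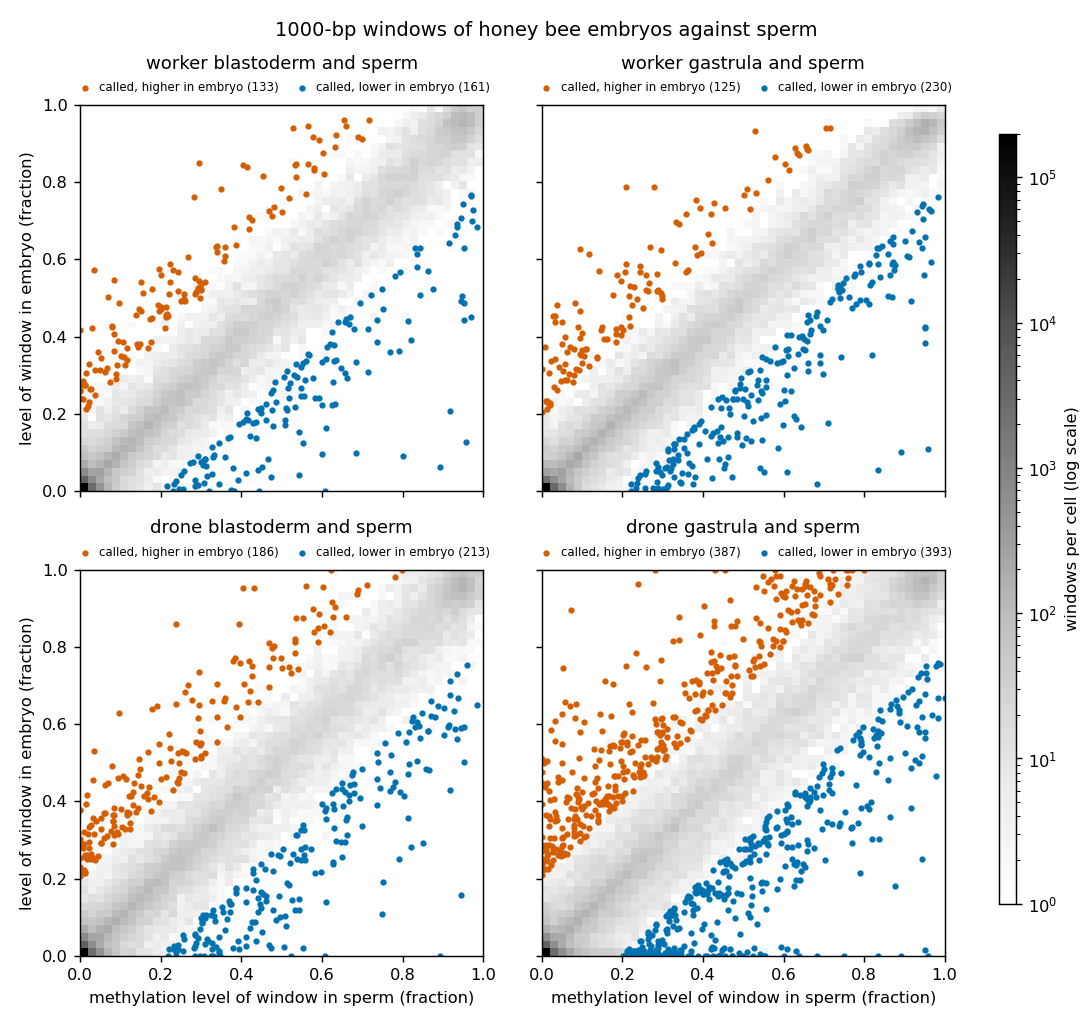
Methylation level (fraction) of 1000-bp windows in embryos on the y axis against sperm on the x axis, 1 panel per embryo group. Grey cells give the number of windows on a log scale, and coloured points are the called windows, 294 in worker blastoderm and 355 in worker gastrula, and 399 in drone blastoderm and 780 in drone gastrula. Most windows sit at the lower left or along the diagonal, and drone gastrula has a row of called windows along the bottom edge.

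Full differences between the unmethylated class (below 0.2) and the methylated class (above 0.8) were found in 2 windows for worker blastoderm, 3 for worker gastrula, 2 for drone blastoderm and 6 for drone gastrula. They all lay in 6 windows, which held 4 to 8 shared CpGs and were named because of their values. In 5 of these, sperm was in the methylated class and at least 1 embryo group in the unmethylated class. A neighbouring pair on chromosome 15 covered 1455001 to 1457000. Its first window had 0.0616 at blastoderm and 0.102 at gastrula in workers, 0 at blastoderm and 0 at gastrula in drones, against 0.892 in sperm, and its 4 CpGs were all lower in each embryo group. The second window had 0.0543 in worker gastrula and 0 in drone gastrula, against 0.833 in sperm, over the 6 CpGs that each shared with sperm. Over the 3 CpGs shared by all files, sperm had 0.667. In this pair workers and drones alike were far below sperm. The window at 10780001 to 10781000 of chromosome 1 had 0.128 in worker blastoderm, 0.111 in worker gastrula and 0 in drone gastrula, against 0.958 in sperm from 21 reads summed over 4 CpGs, and was not covered by enough CpGs in drone blastoderm.

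Of the remaining 3 windows, 2 had intermediate levels in workers and low levels in drone gastrula. The window at 71001 to 72000 of the unplaced scaffold GroupUn104 had 0.472 in worker blastoderm and 0.450 in worker gastrula, and 0.156 in drone blastoderm and 0 in drone gastrula, against 0.946 in sperm, over the 4 CpGs shared by all files. Its worker calls against sperm were lost after thinning (adjusted exact p = 0.0667 at blastoderm and 0.15 at gastrula). The window at 105001 to 106000 of scaffold GroupUn29 had 0.458 at blastoderm and 0.529 at gastrula in workers, 0.292 at blastoderm and 0.0182 at gastrula in drones, against 0.851 in sperm, over the 5 CpGs shared by all files. Its class rests on the 6 CpGs shared by drone gastrula and sperm, where the levels were 0.182 and 0.876. In both of them worker embryos lay between drone embryos and sperm at each stage. The only window methylated in an embryo and not in sperm was at 11745001 to 11746000 of chromosome 5, with 0.188 in worker blastoderm and 0.0516 in worker gastrula, and 0.796 in drone blastoderm and 0.869 in drone gastrula, against 0.05 in sperm, over the 4 CpGs shared by all files. Over the CpGs shared with sperm alone, drone blastoderm had 0.531 against 0.0333 in sperm. Drone gastrula had 0.895 against 0.0733 in sperm. Both drone stages and neither worker stage were called against sperm there. With few CpGs and pooled libraries, a C-to-T sequence difference between the bees and an unmethylated cytosine cannot be told apart in such windows.

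Single CpGs were tested in the same way and called at a difference of at least 0.5. In worker blastoderm 1333 CpGs were called (0.0143% of those tested), 599 higher (0.00644%) and 734 lower (0.00789%) than in sperm. In worker gastrula 2671 were called (0.028%), 1001 higher (0.0105%) and 1670 lower (0.0175%). In drone blastoderm 1875 were called (0.0203%), 919 higher (0.00993%) and 956 lower (0.0103%). In drone gastrula 5804 were called (0.0643%), 3054 higher (0.0338%) and 2750 lower (0.0305%). Few of them belonged to a called window, since 12.0% of the CpGs called for worker blastoderm, 14.3% for worker gastrula, 13.0% for drone blastoderm and 19.2% for drone gastrula lay in a window called in the same direction. Many stood alone. No other called CpG was within 1000 bp of 57.5% of those of worker blastoderm, 48.6% of worker gastrula, 48.6% of drone blastoderm and 30.5% of drone gastrula. Some called CpGs had a level of at least 0.9 in the embryo and at most 0.1 in sperm. They numbered 11 of 1333 at blastoderm and 8 of 2671 at gastrula in workers. In drones they numbered 48 of 1875 at blastoderm and 446 of 5804 at gastrula. The opposite, at most 0.1 in the embryo and at least 0.9 in sperm, was seen at 18 and 32 of the same totals in workers. In drones it was seen at 34 called CpGs at blastoderm and 260 at gastrula. Lone CpGs of this kind can also arise from sequence differences between the bees, which these counts cannot tell apart from methylation.

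Some windows differed from sperm in every embryo group. Of 212130 windows tested in all 4 comparisons, 33 were called higher and 74 lower in all of them, and 10 and 25 of these had at least 10 CpGs in all files. The comparisons share the sperm data, so these counts serve only to choose windows. The 6 in each direction with the largest smallest difference are described here, and their values are extremes by that choice. Adjusted p-values are from Fisher's exact test, and the largest of the 4 comparisons is given for each window.

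Among the windows higher in embryos, that at 1570001 to 1571000 of chromosome 1 had the largest smallest difference. Its level over 12 CpGs was 0.488 at blastoderm and 0.627 at gastrula in workers, 0.629 at blastoderm and 0.579 at gastrula in drones, against 0.0951 in sperm (largest adjusted exact p = 2.35e-13). The share of methylated reads was 0.418 to 0.582 in worker blastoderm and 0.0440 to 0.128 in sperm by their 95% Wilson intervals. All 12 CpGs were higher in worker gastrula, drone blastoderm and drone gastrula, and 11 of them in worker blastoderm. After thinning its call in drone blastoderm was lost (difference 0.31, adjusted exact p = 0.132). Differences in the same direction were seen next to it, where the window starting at 1569001 had 0.137 in worker blastoderm and 0.206 in worker gastrula, and 0.176 in drone blastoderm and 0.164 in drone gastrula, against 0.0304 in sperm.

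The window at 2477001 to 2478000 of chromosome 8 had 0.502 at blastoderm and 0.373 at gastrula in workers, 0.448 at blastoderm and 0.647 at gastrula in drones, against 0.0697 in sperm (largest adjusted exact p = 1.53e-18), and all 10 of its CpGs were higher in each embryo group. It was called in all 4 comparisons after thinning as well. It had sharp edges. The window before it was methylated in every file, with 0.979 in worker blastoderm and 0.941 in worker gastrula, and 0.953 in drone blastoderm and 0.943 in drone gastrula, against 0.988 in sperm, and the window after it had 0.102, 0.126, 0.0916 and 0.0966 in the same order of embryos, against 0.126 in sperm.

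On scaffold GroupUn187, the window at 16001 to 17000 had 0.619 at blastoderm and 0.692 at gastrula in workers, 0.705 at blastoderm and 0.817 at gastrula in drones, against 0.340 in sperm (largest adjusted exact p = 1.85e-08). The window at 231001 to 232000 of chromosome 2 was alike in the embryos, with 0.701 in worker blastoderm and 0.745 in worker gastrula, and 0.75 in drone blastoderm and 0.762 in drone gastrula, against 0.426 in sperm (largest adjusted exact p = 5.62e-13). It was an isolated methylated window, since the 3 windows on each side had levels of at most 0.0283 in every file. Chromosome 10 held the other two. The window at 8395001 to 8396000 had 0.492 at blastoderm and 0.561 at gastrula in workers, 0.683 at blastoderm and 0.749 at gastrula in drones, against 0.259 in sperm (largest adjusted exact p = 1.68e-12). That at 12502001 to 12503000 had 0.407 in worker blastoderm and 0.317 in worker gastrula, and 0.314 in drone blastoderm and 0.355 in drone gastrula, against 0.0849 in sperm over 19 CpGs (largest adjusted exact p = 1.20e-17). Drone embryos were above worker embryos of the same stage in 3 of these 6 windows at both stages.

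**Figure D3:**
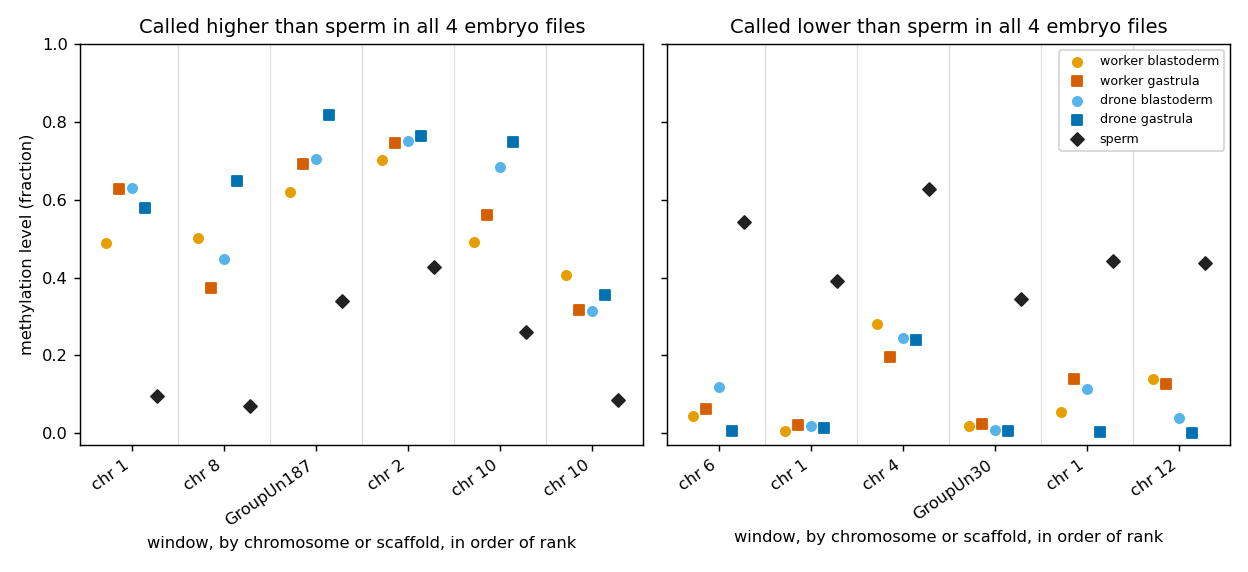
Methylation level (fraction) of 12 windows called in the same direction in all 4 embryo groups, 6 higher (left) and 6 lower (right) than sperm, named by chromosome or scaffold. Circles are blastoderm and squares gastrula, of workers (orange) and drones (blue), and black diamonds are sperm, which lies below every embryo group on the left and above every embryo group on the right.

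The windows lower in embryos were close to unmethylated in several cases. At 4722001 to 4723000 of chromosome 6 the level over 12 CpGs was 0.0431 at blastoderm and 0.0612 at gastrula in workers, 0.118 at blastoderm and 0.00463 at gastrula in drones, against 0.543 in sperm (largest adjusted exact p = 1.83e-22). The 95% Wilson interval of the share of methylated reads was 0.0252 to 0.0750 in worker blastoderm and 0.491 to 0.596 in sperm. Sperm methylation was not limited to this window. The window starting at 4725001 had 0.171 in worker blastoderm and 0.231 in worker gastrula, and 0.102 in drone blastoderm and 0.0102 in drone gastrula, against 0.509 in sperm, and the one before it, starting at 4724001, had 0.0853, 0.0673, 0.0241 and 0.00505 in the same order, against 0.190 in sperm.

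The window at 5602001 to 5603000 of chromosome 1 had 0.00513 at blastoderm and 0.0199 at gastrula in workers, 0.0183 at blastoderm and 0.0140 at gastrula in drones, against 0.392 in sperm (largest adjusted exact p = 5.08e-24). The embryos were here all below 0.02. A second window with nearly unmethylated embryos lay at 129001 to 130000 of scaffold GroupUn30, with 0.0177 in worker blastoderm and 0.0226 in worker gastrula, and 0.00826 in drone blastoderm and 0.00564 in drone gastrula, against 0.344 in sperm (largest adjusted exact p = 2.39e-46). In it, 24 of 29 CpGs were lower in each embryo group, while the windows next to it on both sides were at most 0.015 in every file.

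The window at 7761001 to 7762000 of chromosome 4 had 0.282 at blastoderm and 0.195 at gastrula in workers, 0.244 at blastoderm and 0.239 at gastrula in drones, against 0.627 in sperm (largest adjusted exact p = 1.22e-20). Here the embryos were at an intermediate level. At 5344001 to 5345000 of chromosome 1 the level was 0.0552 in worker blastoderm and 0.139 in worker gastrula, and 0.113 in drone blastoderm and 0.00265 in drone gastrula, against 0.441 in sperm (largest adjusted exact p = 1.31e-23). At 11715001 to 11716000 of chromosome 12 it was 0.139 at blastoderm and 0.126 at gastrula in workers, 0.0384 at blastoderm and 0 at gastrula in drones, against 0.436 in sperm, and all 11 CpGs were lower in each embryo group (largest adjusted exact p = 9.16e-06). Its call in worker blastoderm was lost after thinning (adjusted exact p = 0.132). Drone gastrula was the lowest of the embryo groups in 4 of these 6 windows.

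**Figure D4:**
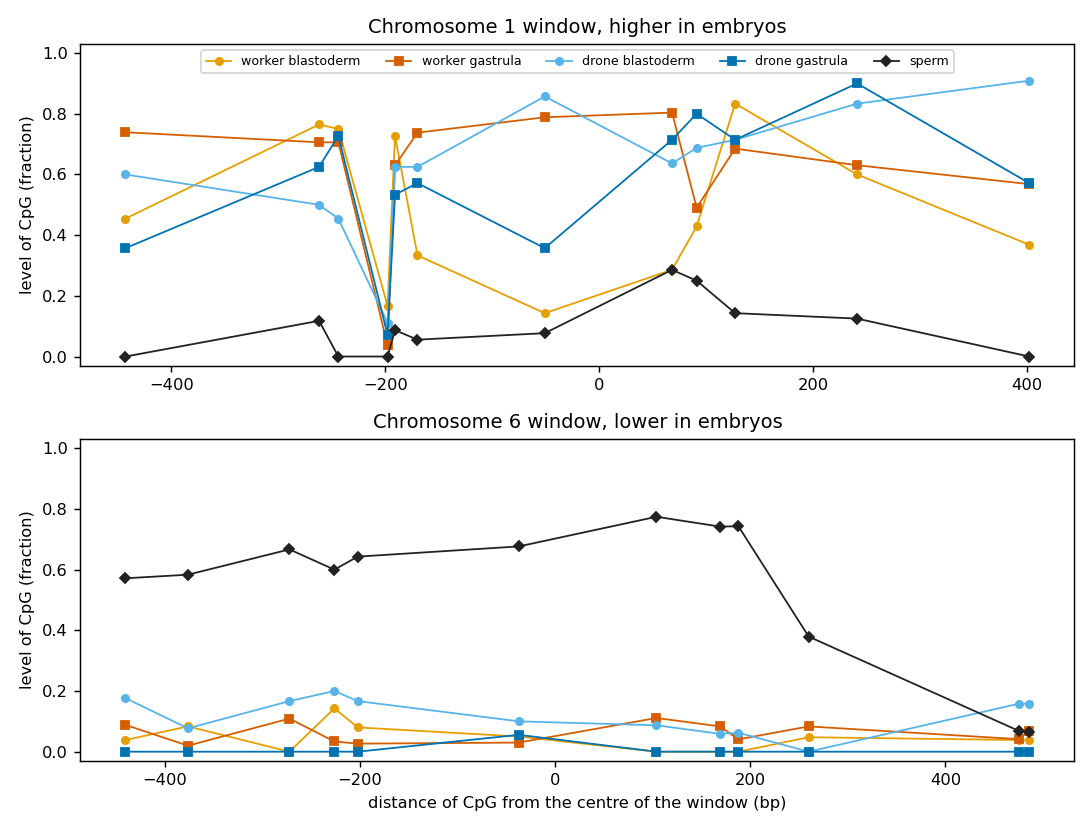
Methylation level (fraction) of single CpGs in 2 windows against their distance in bp from the centre of the window, 1 line per file. On top is the chromosome 1 window starting at 1570001, whose mean is 0.488 to 0.629 in embryos and 0.0951 in sperm, and below it is the chromosome 6 window starting at 4722001, whose mean is 0.00463 to 0.118 in embryos and 0.543 in sperm. In the chromosome 6 window, sperm is close to the embryos at the last CpGs of the right end.

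Other windows were called against sperm in workers or in drones alone. Among the 212130 windows, 16 were called in the same direction for both worker stages and for neither drone stage, 8 higher and 8 lower, and 114 for both drone stages and neither worker stage, 66 higher and 48 lower, again with shared sperm data. A call in one kind of embryo and not in the other does not show that they differ, so workers and drones of the same stage were also tested directly by Fisher's exact test. In that test 7 of 214663 windows were called at blastoderm (0.00326%) and 495 of 217758 at gastrula (0.227%), where workers were higher in 188 (0.0863%) and lower in 307 (0.141%).

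Of the windows called against sperm in workers alone, 2 had at least 10 CpGs in all files. The window at 7204001 to 7205000 of chromosome 1 had 0.0910 in worker blastoderm and 0.0509 in worker gastrula, and 0.336 in drone blastoderm and 0.398 in drone gastrula, against 0.293 in sperm. Workers were lower than drones in it both at blastoderm (difference -0.25, adjusted p = 0.00581) and at gastrula (difference -0.35, adjusted p = 1.07e-24) by the exact test. Drones differed from sperm by 0.04 at blastoderm and 0.10 at gastrula, which is less than a call needs. The window at 4615001 to 4616000 of chromosome 9 had 0.192 at blastoderm and 0.166 at gastrula in workers, 0.277 at blastoderm and 0.236 at gastrula in drones, against 0.398 in sperm, and the direct test did not call it at either stage. The calls of both windows against sperm were lost in some of the alternatives. After thinning, the window on chromosome 1 had an adjusted exact p of 0.902 at blastoderm and 0.339 at gastrula, and that on chromosome 9 of 1 and 0.135. With at least 10 reads per CpG the difference in worker blastoderm was -0.15 on chromosome 1 and -0.18 on chromosome 9, and that in worker gastrula was -0.16 on chromosome 1, none of them called.

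The 3 windows with the largest worker and drone contrast among those called in drones alone were on chromosomes 3 and 8. At 3614001 to 3615000 of chromosome 3 the level was 0.210 in worker blastoderm and 0.0109 in worker gastrula, and 0.370 in drone blastoderm and 0.707 in drone gastrula, against 0.0619 in sperm, and all 10 CpGs were higher in both drone stages. At 2386001 to 2387000 of chromosome 8 it was 0.123 at blastoderm and 0.0355 at gastrula in workers, 0.253 at blastoderm and 0.407 at gastrula in drones, against 0.0296 in sperm. In both windows drone gastrula was far above sperm and worker gastrula was not called against it. At 13218001 to 13219000 of chromosome 3 the level was 0.731 in worker blastoderm and 0.907 in worker gastrula, and 0.634 in drone blastoderm and 0.507 in drone gastrula, against 0.927 in sperm, so that drones were here on the lower side. Worker blastoderm lay on the same side of sperm as drones in all 3 windows, by less than a call needs. Its difference from sperm was 0.148 at 3614001 (adjusted exact p = 0.0465), 0.0931 at 2386001 (1.15e-09) and -0.195 at 13218001 (2.15e-05). Workers and drones differed at gastrula in each of the 3 windows in the direct test, and at blastoderm in none of them by the same call rule. After thinning, the drone blastoderm calls against sperm were lost in both windows of chromosome 3 (adjusted exact p = 0.347 at 3614001 and 0.0545 at 13218001).

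Opposite directions were called in 3 windows, all of them lower than sperm in worker gastrula and higher in drone gastrula. The window at 3657001 to 3658000 of chromosome 15 had 0.543 at blastoderm and 0.105 at gastrula in workers, 0.591 at blastoderm and 0.820 at gastrula in drones, against 0.574 in sperm. At the blastoderm stage both kinds of embryo were thus near sperm, with adjusted p of 1 in either comparison by Fisher's exact test. The window at 11697001 to 11698000 of chromosome 8 had 0.598 in worker blastoderm and 0.351 in worker gastrula, and 0.642 in drone blastoderm and 0.895 in drone gastrula, against 0.611 in sperm. It held 6 CpGs, of which 4 were lower than sperm in worker gastrula and 4 higher in drone gastrula, and its drone gastrula call was lost after thinning (difference 0.21, adjusted exact p = 0.0958). The window at 67001 to 68000 of scaffold GroupUn88 had 0.453 at blastoderm and 0.141 at gastrula in workers, 0.459 at blastoderm and 0.725 at gastrula in drones, against 0.483 in sperm. All 3 showed the same order, with blastoderm embryos within 0.05 of sperm and the gastrulae of workers and drones on either side of it.

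Called windows rarely formed longer regions. Runs of 3 or more neighbouring windows called in the same direction numbered 0 in worker blastoderm and 2 in worker gastrula, and 0 in drone blastoderm and 1 in drone gastrula. The longest covered 4561001 to 4565000 of chromosome 16 and was called higher in worker gastrula. Over its 39 CpGs shared by all files the level was 0.242 at blastoderm and 0.422 at gastrula in workers, 0.249 at blastoderm and 0.00732 at gastrula in drones, against 0.127 in sperm, so that drone gastrula lay below sperm and the other embryos above it. A further window 2000 bp beyond its end, at 4567001 to 4568000, had 0.170 in worker blastoderm and 0.361 in worker gastrula, and 0.242 in drone blastoderm and 0.00860 in drone gastrula, against 0.00974 in sperm.

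The other long runs were lower in embryos. On chromosome 7, 4380001 to 4383000 was called lower in drone gastrula, and its level was 0.0625 at blastoderm and 0.0906 at gastrula in workers, 0.0332 at blastoderm and 0.00688 at gastrula in drones, against 0.283 in sperm. On chromosome 11, 511001 to 514000 was called lower in worker gastrula, with 0.156 in worker blastoderm and 0.137 in worker gastrula, and 0.0682 in drone blastoderm and 0.136 in drone gastrula, against 0.552 in sperm, over 17 CpGs shared by all files. Its last window was called in worker gastrula alone and was not tested in drone blastoderm. Over the CpGs shared by all files, all 4 embryo groups were below sperm in both runs. Only the first window of each run was called in all 4 comparisons, and the last window of the chromosome 7 run was called in drone gastrula alone.

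Whether worker embryos were nearer to sperm than drone embryos was asked in windows where both differed from sperm. To keep the choice of windows apart from the values, windows called in the same direction for workers and drones at one stage were examined at the other stage. The sperm data entered the choice, but the embryo data compared did not. Of 112 windows lower than sperm in both gastrulae, 107 could be compared between workers and drones at blastoderm. These had a mean level of 0.270 in worker blastoderm and 0.234 in drone blastoderm, against 0.565 in sperm. Workers were higher than drones in 72 of them and lower in 32, with a median difference of 0.02. Of 45 windows higher than sperm in both gastrulae, 44 could be compared in this way. They had 0.517 in worker blastoderm and 0.563 in drone blastoderm, against 0.242 in sperm. Workers were lower than drones in 33 and higher in 11, with a median difference of -0.04. In both directions worker blastoderm was thus on the side of drone blastoderm that is nearer to sperm.

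The same order was found at gastrula with larger differences. The windows chosen at the 2 stages overlap and are not separate sets. The 74 windows called lower and 33 called higher than sperm in all 4 comparisons belong to both choices. In the 104 windows lower than sperm in both blastoderms, the mean level was 0.270 in worker gastrula and 0.192 in drone gastrula, against 0.554 in sperm. Workers were higher in 82 and lower in 22, and the direct test called 13 of them higher and 1 lower (31001 to 32000 of scaffold GroupUn102, 0.449 in worker gastrula and 0.830 in drone gastrula). In the 75 windows higher than sperm in both blastoderms, it was 0.454 in worker gastrula and 0.567 in drone gastrula, against 0.240 in sperm. Workers were lower in 62 and higher in 13, and the direct test called 16 of them lower and 2 higher. These 2 were at 4086001 to 4087000 of chromosome 14, with 0.633 in worker gastrula and 0.320 in drone gastrula, and at 4564001 to 4565000 of chromosome 16, in the run described above, with 0.611 and 0.0210. For comparison, the direct test at gastrula called workers higher in 188 (0.0863%) and lower in 307 (0.141%) of all 217758 windows, and higher in 127 and lower in 241 of the 8729 windows at 0.2 to 0.8, so that lower calls were also the more common kind there. The median difference of worker minus drone was 0.05 in windows lower than sperm and -0.11 in windows higher than sperm. At blastoderm the direct test called none of these windows in either direction at its threshold.

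Expressed on the way from drone to sperm, the worker mean was 10.9% of the way at blastoderm and 21.5% at gastrula in windows lower than sperm, and 14.4% and 34.6% in windows higher than sperm. The sperm data entered the choice of windows, so the distance to sperm can be too large here, which affects these percentages. Drones also spread more widely around sperm over all 8088 windows with a mean over the files of 0.2 to 0.8. There the standard deviation of embryo minus sperm was 0.0906 in worker and 0.101 in drone blastoderm, and 0.0868 in worker and 0.123 in drone gastrula. The part of depth in this was not tested. Over all windows tested, workers were higher than drones in 46.5% at blastoderm and 52.6% at gastrula, and in windows with a mean of worker and drone between 0.2 and 0.8 in 46.8% and 42.3%. The share of windows in which workers were higher was 67.3% at blastoderm and 78.8% at gastrula in windows lower than sperm, and 25.0% and 17.3% in windows higher than sperm. Neighbouring windows are not independent, workers and drones have 1 pooled library each per stage, and a paternal genome, caste, sex and library cannot be told apart as the source of a difference between them.

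**Figure D5:**
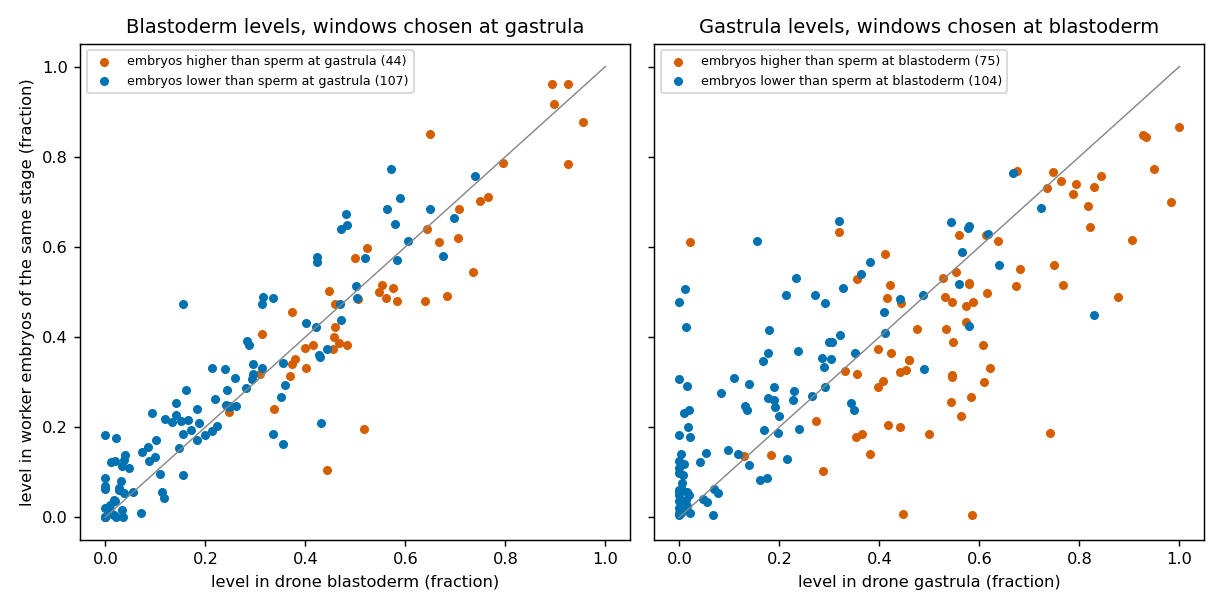
Methylation level (fraction) of worker embryos on the y axis against drone embryos of the same stage on the x axis, in windows called in the same direction against sperm for workers and drones at the other stage. The grey line marks equal levels. At gastrula (right), 82 of the 104 windows with embryos lower than sperm lie above the line and 62 of the 75 with embryos higher than sperm lie below it.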

How the data were processed

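WGBS was performed by the authors on genomic DNA of honey bee sperm and of worker and drone blastoderm and gastrula embryos. Reads were trimmed with Trimmomatic and aligned with Bismark to the assembly GCA_000002195.1 with the lambda genome, duplicates were removed, overlapping read pairs were clipped with bamUtil, and calls were extracted. SAMtools 0.1.19 is named in the submitters' processing notes, and the versions of the remaining tools are not given in the sources used here. The authors deposited, for each CpG, counts of reads with and without methylation over both strands, with 2 replicates pooled per stage, and the level as a fraction of reads. Neither was corrected for non-conversion.

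CpGs with at least 5 reads in both files were kept, and the level of a window is the mean over its CpGs. Fisher's exact test was 2-sided and computed on summed reads, with Benjamini-Hochberg adjustment over all windows or CpGs of a comparison. The minimum difference of 0.2 and of 3 CpGs follow the settings of the study for invertebrates. The test was checked on simulated data at the depths of the files. Reads were drawn independently for each CpG there, so the check does not cover reads that span several CpGs or spread between replicates. Among windows with at least 10 CpGs in all files, the 2 that differed most in each direction were named for each comparison. The 6 in each direction called in all 4 comparisons, the 3 with the largest contrast called in workers alone or drones alone, and the 3 longest runs were also named. Windows behind a count of 6 or fewer were named after their values were seen. The members and lists were chosen with earlier results of these data known. Alternatives were tried for the minimum reads, depth, pooling, window size, minimum CpGs, minimum difference and class bounds. Positions are counted from 1, taking the deposited starts to count from 0. Gene names were not used here. Oocytes were not used here. Python 3.11.15, numpy 2.4.6, pandas 2.3.3, scipy 1.17.1, numba 0.67.0 and matplotlib 3.10.9 were used. Of the CpGs covered in a file, 94.0% to 98.0% had at least 5 reads.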

Additional observations from a re-analysis of the deposited data

Results flagged for a closer look

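In 13 of the windows named by rule or for a full or opposite difference, workers and drones of the same stage differed in the direct test (Fisher's exact test on pooled reads, 2-sided, Benjamini-Hochberg adjustment over all windows), by at least 0.2 on the fraction scale. Each difference is worker minus drone over the CpGs that the pair shares. These windows had been named partly for contrasts between workers and drones, so their number says nothing about the genome.

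At gastrula, workers were lower than drones by a difference of -0.23 at 2477001 of chromosome 8 (adjusted exact p = 0.00496), -0.72 at 3657001 of chromosome 15 (1.19e-103), -0.56 at 3614001 of chromosome 3 (1.32e-82) and -0.35 at 7204001 of chromosome 1 (1.07e-24). They were also lower at 2386001 (-0.37, adjusted exact p = 1.92e-76) and 11697001 (-0.54, adjusted exact p = 7.39e-30) of chromosome 8. The same held at 67001 of GroupUn88 (-0.58, adjusted exact p = 2.99e-58) and at 11745001 of chromosome 5 (-0.84, adjusted exact p = 1.69e-23).

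Workers were higher than drones at gastrula by 0.37 at 4567001 of chromosome 16 (adjusted exact p = 2.19e-25), 0.22 at 4725001 of chromosome 6 (5.74e-21) and 0.40 at 13218001 of chromosome 3 (1.02e-25). They were also higher by 0.46 at 105001 of GroupUn29 (3.77e-09) and 0.41 at 71001 of GroupUn104 (1.47e-12). At blastoderm, the window at 7204001 of chromosome 1 was the only named one to pass, with a difference of -0.25 (adjusted exact p = 0.00581).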

How the results depend on the processing

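No mean difference, median or difference of a named window changed sign under the alternatives run, but called windows in drone gastrula, 387 higher and 393 lower, numbered 398 higher and 377 lower with at least 10 reads, 272 and 260 after thinning, and 322 and 316 with at least 5 CpGs. In the order worker blastoderm, worker gastrula, drone blastoderm and drone gastrula, the mean difference from sperm was 0.000228, 0.000913, 0.000512 and 0.00100 after thinning, and 0.00235, 0.00501, 0.00103 and 0.00319 with reads pooled over CpGs, which changed the order of the comparisons. With at least 10 reads it was 0.000915 in worker gastrula and 0.00103 in drone gastrula. Called windows numbered 145, 184 and 197 after thinning in the first 3 comparisons, 715, 975, 916 and 1717 with 500-bp windows, and 94, 110, 148 and 301 at a difference of at least 0.3. At class bounds of 0.1 and 0.9, full differences numbered 0, 0, 0 and 2. The median of worker minus drone, with windows chosen at a difference of at least 0.3, was 0.0208 (lower) and -0.0839 (higher than sperm) at blastoderm, and 0.0659 and -0.147 at gastrula. Of the values of named windows under these alternatives, 133 stayed on their side of the threshold and 14 dropped below it, in 8 windows named in the text beside their values. These numbers leave out windows that had too few CpGs to be tested. The windows at 1455001 and 1456001 of chromosome 15, 10780001 of chromosome 1 and 11745001 of chromosome 5 had no value after thinning or with at least 10 reads. The window at 105001 of GroupUn29 had none after thinning, and none in either drone stage with at least 10 reads. The window at 1570001 of chromosome 1 had none in drone blastoderm with at least 10 reads. That at 71001 of GroupUn104 had none in worker blastoderm with at least 10 reads, and none in drone blastoderm after thinning. No paired analysis was possible because each stage has 1 file that pools its replicates, and for the same reason no replicate could be left out. Depth limits drone gastrula most, with a median of 17 reads per CpG.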
